A study of Mus musculus with 56 samples.

Results

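Single tumor cells that carried transcripts of the mitotic genes Mki67 or Top2a were compared with tumor cells of the same mouse in which both genes were below 1 TPM. The cells were chosen by measured values: a cell with Mki67 or Top2a at 10 TPM or more (a level scaled to the length of the transcript and to a fixed sum per library) is called a cell with mitotic genes below, and a cell with both genes under 1 TPM a cell without. Of 50 cells, 17 had mitotic genes (34%, exact Clopper-Pearson 95% interval 21.2 to 48.8%), 28 were without (56%, 41.3 to 70%) and 5 lay between the thresholds (10%, 3.33 to 21.8%). These intervals cover counting error only. All cells came from 1 male Apc Min/+ mouse, which carries a truncating mutation of the Wnt regulator Apc, had 2% dextran sulfate sodium in its drinking water for 5 days from 10 weeks of age, and gave 3 colon tumors, pooled, at 12 weeks. Epithelial cells were sorted singly as DAPI-Cd31-Cd45-Epcam+Cd24+, and libraries were made only from cells whose cDNA gave the stem cell receptor gene Lgr5 by PCR (32 cycles). The 56 libraries came down to 50 cells because 6 library pairs correlated at more than 0.9 over genes (Pearson's r 0.957 to 0.992 within pairs, at most 0.782 for any other pair) and were averaged as 1 cell each. Cells of 1 mouse are not replicates of a condition, so every difference below is a description of these cells, with no test.

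Mki67 encodes a protein that coats chromosomes in dividing cells, and Top2a encodes the topoisomerase that untangles sister chromatids. Transcripts of both build up through S phase and G2 and peak in mitosis, under transcription programs that use E2F, B-MYB and FOXM1. In colon crypts and in Apc-mutant tumors, dividing cells are fed by Wnt-driven stem and progenitor cells, and other cells of the same tumor can leave the cycle. A cell with Mki67 or Top2a transcripts is therefore a cycling cell by its RNA, not one seen in mitosis.

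Mki67 was listed at 0 to 137 TPM (median 17.8) in the cells with mitotic genes, against 0 to 0.59 TPM (median 0) in the cells without. Top2a was at 0.06 to 149.6 TPM (median 20.2) in the cells with mitotic genes, against 0 to 0.48 TPM (median 0) in the cells without. Both genes passed 10 TPM in 9 cells, Top2a alone in 6 and Mki67 alone in 2. The thresholds cut between close values: the cells just inside had 10.34 and 10.63 TPM of their higher gene, and the nearest cell outside had 9.85 TPM. These values chose the cells and are no finding.

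The other cell cycle genes showed that the chosen cells were of several kinds. Of 38 other G2/M genes, 6 to 37 (median 23) were seen at 1 TPM or more in a cell with mitotic genes, against 2 to 10 (median 6) in a cell without. Of 40 genes of S phase and DNA replication, 9 to 39 (median 31) were seen in a cell with mitotic genes, against 1 to 28 (median 10) in a cell without. The 9 cells with both Mki67 and Top2a held 22 to 37 G2/M genes and 31 to 39 S phase genes, whereas the 8 cells with only 1 of them held 6 to 23 and 9 to 33. In 3 cells chosen by Top2a alone (10.63 to 20.24 TPM), only 6 to 8 G2/M genes and 9 to 13 S phase genes were seen, which lies within the range of the cells without, so the label of a cycling cell rests on 1 transcript there. A further cell, chosen by Mki67 alone (16.92 TPM), held 6 G2/M and 28 S phase genes, each within the range of the cells without. In the other direction, 1 cell without held 28 S phase genes, and the next highest held 14.

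**Figure D1:**
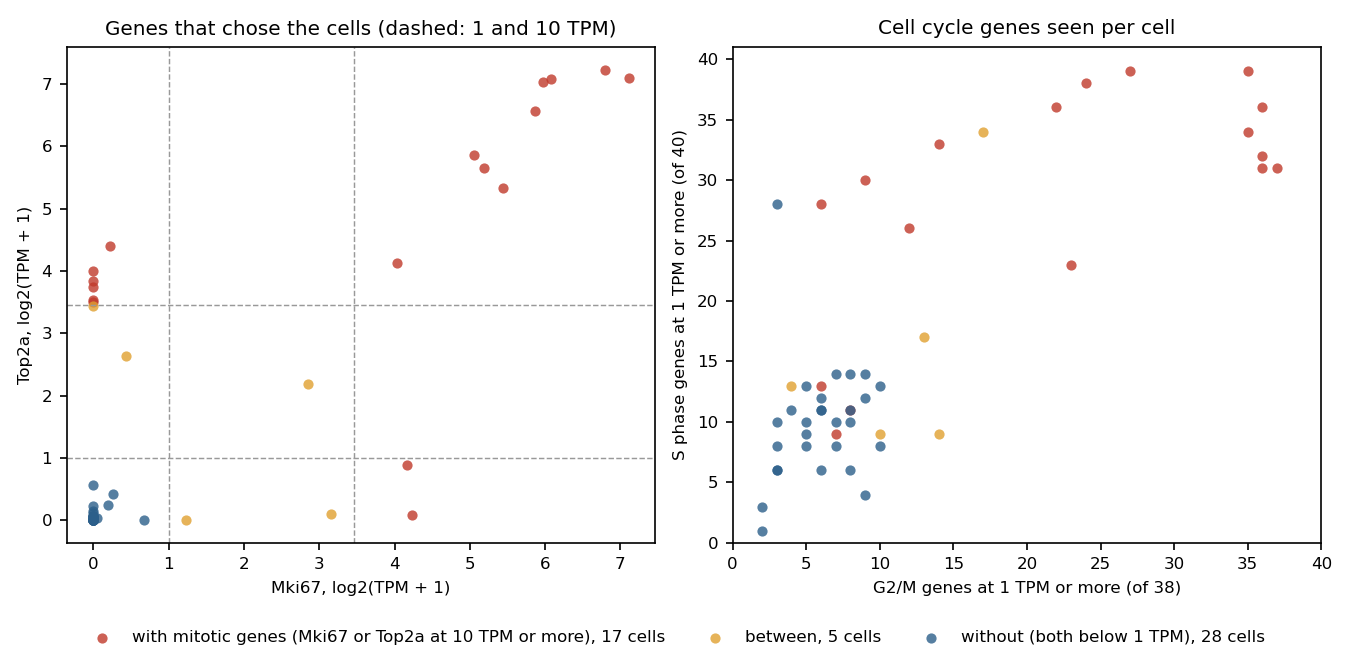
Left, Mki67 and Top2a in each of 50 cells on the log2(TPM + 1) scale, with dashed lines at 1 and 10 TPM; right, the number of 38 other G2/M genes and of 40 S phase genes seen at 1 TPM or more in each cell. Red, 17 cells with mitotic genes; amber, 5 cells between; blue, 28 cells without. The cells with mitotic genes spread from 6 to 37 G2/M genes. In the right panel 3 of them, with 9 to 13 S phase genes, lie among the cells without. Another, with 6 G2/M and 28 S phase genes, lies near the 1 cell without that held 28 S phase genes.

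Genes were compared by the mean of log2(TPM + 1) in cells with mitotic genes minus that in cells without, and by the share of pairs of 1 cell of each kind in which the cell with mitotic genes had the higher value (ties counted as 50%). A gene was called higher at a difference of 1 or more with at least 70% of pairs, and called lower at -1 or less with at most 30%. Of 9166 genes seen in 20% of cells, 601 were called higher, which is 6.56%, and 43 were called lower, which is 0.469%. Outside the cell cycle the counts were 460 higher and 43 lower of 8909 genes, and in a set of 257 cell cycle genes they were 141 (54.9%) and 0. No gene kept the 2 kinds of cells wholly apart. The median gene was 0.26 higher in cells with mitotic genes, and 67.2% of genes had a positive difference, so a list is read below against that shift. The cells with mitotic genes also showed more genes, 5601 to 7234 (median 6325) at 1 TPM or more, against 1316 to 6484 (median 5639) in the cells without. Among the cells within the shared range of 5601 to 6484 genes (9 with mitotic genes and 15 without), 465 genes were called higher and 615 lower and the median gene was at -0.06, so that lower calls outnumbered higher ones there. The part of genes per cell in single results was not tested beyond the values given beside them.

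**Figure D2:**
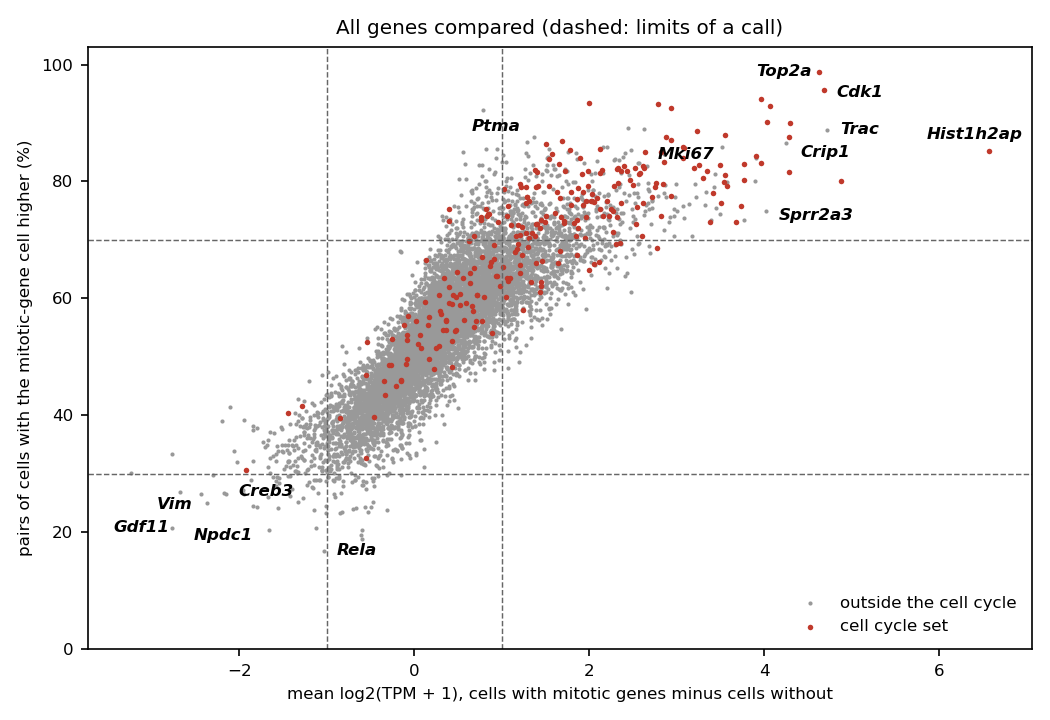
Each point is 1 of 9166 genes, with the difference of mean log2(TPM + 1), cells with mitotic genes minus cells without, on the x axis and the share of pairs in which the cell with mitotic genes was higher on the y axis; red, the cell cycle set. Dashed lines mark the limits of a call. Trac and Crip1 lie among the highest cell cycle genes, and Rela has the lowest share of pairs at 16.8%.

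Outside the cell cycle, the 15 genes called higher with the largest share of pairs (84.6 to 89.1%) included genes of chromatin, nuclear transport and RNA processing, and others of unrelated known roles. They are grouped by hand below to order the text. The share of such roles over all genes compared was not counted, so no theme is read from the groups. The largest difference of the 15 was that of Trac, the constant region of the T cell receptor alpha chain. On build GRCm38, in the GENCODE M21 annotation, Trac (chr14:54220521-54224206, plus strand) was at 0 to 215 TPM (median 125) in the cells with mitotic genes and seen in 16 of 17, against 0 to 144 TPM (median 0) and 8 of 28 in the cells without. The difference was 4.73, with 88.8% of pairs, and it was 4.10 where the i7 index was N704 to N707, 5.23 where it was N708 to N710 and 4.41 in the shared range of genes per cell. The cells with and without overlapped, with 6 cells with mitotic genes above every cell without. Genes that T cells need beside it were chosen for a look after the Trac values were seen. Cd3e and Cd3g, subunits of the receptor complex, were listed at 0 in every cell of both kinds. Cd3d reached 0.93 TPM at most, in a cell without, and the leukocyte gene Ptprc reached 0.03 TPM in cells with mitotic genes and 0.34 TPM in cells without. Lck, a kinase of T cell receptor signaling, was seen in 3 of 17 cells with mitotic genes (up to 101 TPM) and 7 of 28 cells without (up to 98.6 TPM), with a difference of -0.36. Cd2, a T cell adhesion molecule, was seen in 1 cell with mitotic genes at 13.3 TPM and listed at 0 in the cells without. No stretch of 31 bases of Trac occurs in a transcript of another gene of that annotation. Dad1, an oligosaccharyltransferase subunit that neighbours Trac, was at 52.3 to 274 TPM (median 126) in cells with mitotic genes and 0 to 243 TPM (median 115) in cells without, a difference of 0.85 that was not called.

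Crip1 (chr12:113146316-113153879, plus strand), a small zinc-binding LIM protein first found in intestine, showed nearly as large a difference. It was at 0 to 604 TPM (median 179) in the cells with mitotic genes and seen in 16 of 17, against 0 to 480 TPM (median 3.62) and 16 of 28 in the cells without. The difference was 4.26 (86.7% of pairs), with 4.16 and 3.68 in the lower and higher i7 indexes and 4.06 in the shared range. High Crip1 also occurred without mitotic genes, where the highest cells lay above the median of the cells with them.

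Ranbp1, Banf1 and Hikeshi, all of the 15, are known in nuclear transport or the nuclear envelope. Ranbp1 (chr16:18239784-18248732, minus strand), which helps the GTPase Ran release its cargo receptors, was at 77.2 to 349 TPM (median 179) in the cells with mitotic genes, against 9.66 to 241 TPM (median 72.8) in the cells without. All 17 cells with mitotic genes lay above the median of the cells without, and the difference was 1.54 with 85.5% of pairs. Banf1, a chromatin protein that helps rebuild the nuclear envelope after division, was at 242 to 1710 TPM (median 690) in the cells with mitotic genes, against 1.11 to 736 TPM (median 311) in the cells without. Its difference was 1.86, with 84.9% of pairs and 7 cells above every cell without. Hikeshi, the carrier that brings Hsp70 into the nucleus under heat stress, was at 0 to 32.0 TPM (median 10.2) in the cells with mitotic genes, against 0 to 19.9 TPM (median 0) in the cells without. The difference was 2.21 (85.8% of pairs).

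The upstream sequences of 3 genes called higher are shown because genes of G2/M and S phase carry known promoter elements, against which Ranbp1 can be read. Each stretch is the 150 bases before the gene's start in RefSeq, build GRCm38.p6, 5′ to 3′ on the gene's strand, with matches in capitals to the CHR element (TTTGAA or TTCGAA), the CCAAT box (CCAAT) and the E2F site (TTTCCCGC or TTTGGCGC) on both strands.
Top2a, chr11:99024190-99024339, minus strand: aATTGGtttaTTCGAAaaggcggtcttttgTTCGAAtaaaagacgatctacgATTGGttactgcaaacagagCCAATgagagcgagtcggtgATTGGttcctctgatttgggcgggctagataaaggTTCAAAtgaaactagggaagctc
Ccnb1, chr13:100786487-100786636, minus strand: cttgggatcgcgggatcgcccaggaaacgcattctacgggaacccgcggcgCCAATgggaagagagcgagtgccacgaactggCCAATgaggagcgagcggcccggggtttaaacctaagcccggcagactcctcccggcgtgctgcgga
Ranbp1, chr16:18248695-18248844, minus strand: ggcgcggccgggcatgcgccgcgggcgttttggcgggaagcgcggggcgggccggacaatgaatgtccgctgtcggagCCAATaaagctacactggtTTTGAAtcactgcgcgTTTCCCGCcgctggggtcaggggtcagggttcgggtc
The Ranbp1 stretch holds a CCAAT box, a CHR match and an E2F match, whereas that of Ccnb1, cyclin B1, named after its values were seen (difference 2.83), holds 2 CCAAT boxes, and that of Top2a holds 4 CCAAT boxes and 3 CHR matches. Over the 250 bases before the start, the CCAAT box occurred in 74.3% of 35 G2/M genes with a promoter in the tables, 58.6% of 29 S phase genes, 39.7% of 365 genes called higher outside the cell cycle, 39.5% of 38 called lower and 37.3% of 7242 compared genes. The E2F letters occurred in 0, 20.7, 4.66, 0 and 2.68% of the same sets, and the CHR letters in 31.4, 17.2, 16.7, 13.2 and 12.0%. The same 150 bases of Ptma and Rela held no match to the 3 elements. A match of letters is not a bound site.

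Ptma, Hmgb1 and Dpy30, also of the 15, encode chromatin proteins. Ptma (chr1:86526726-86530712, plus strand) encodes prothymosin alpha, an acidic nuclear protein that binds linker histone, and it was at 991 to 5393 TPM (median 2994) in the cells with mitotic genes, against 5.84 to 2163 TPM (median 1382) in the cells without. It was the most abundant of the 15, and 12 of 17 cells with mitotic genes lay above every cell without (difference 1.37, 87.6% of pairs). The Ptma difference was below the limit of a call in the lower i7 indexes (0.95) and in the shared range of genes per cell (0.90). Hmgb1, a DNA-bending high mobility group protein, was at 155 to 2634 TPM (median 645) in the cells with mitotic genes, against 0 to 788 TPM (median 280) in the cells without (difference 1.75, 85.1% of pairs). Dpy30, a core subunit of the complexes that methylate histone H3 at lysine 4, was seen in all 17 cells with mitotic genes at 14.5 to 73.6 TPM (median 37.2), against 17 of 28 cells without, at 0 to 46.5 TPM (median 14.4). Every cell with mitotic genes lay above the median of the cells without for Dpy30, and 8 lay above all of them (difference 2.48, 85.3% of pairs).

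Eif4a3, Tsen15 and Selenoh, also of the 15, are known in RNA processing or the nucleolus. Eif4a3, the helicase at the core of the exon junction complex, was at 26.5 to 212 TPM (median 111) in the cells with mitotic genes, against 0 to 173 TPM (median 27.2) in the cells without (difference 2.16). Tsen15, a subunit of the tRNA splicing endonuclease, was seen in 15 of 17 cells with mitotic genes (median 14.9 TPM), against 6 of 28 cells without (median 0), with a difference of 2.85. Selenoh, a redox-active selenoprotein of the nucleolus, was at 210 to 1587 TPM (median 867) in the cells with mitotic genes and seen in all 17, against 0 to 962 TPM (median 236) and 21 of 28 in the cells without. Its difference was 3.51 over all cells and 2.00 in the shared range of genes per cell.

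The remaining genes of the 15 have other known roles. Aldh9a1, an aldehyde dehydrogenase of carnitine synthesis, was seen in 16 of 17 cells with mitotic genes (median 22.8 TPM), against 13 of 28 cells without (median 0.59 TPM), and 10 cells with mitotic genes exceeded every cell without (difference 2.63, 89.0% of pairs). Trim37, a ubiquitin ligase that limits the formation of extra centrosomes, was low in both kinds, with a median of 1.91 TPM in cells with mitotic genes and 0 in cells without. Its difference of 1.01 lay at the limit of a call and was 0.89 in the shared range of genes per cell. Dnaaf2, an assembly factor of axonemal dynein, was seen in 14 of 17 cells with mitotic genes against 5 of 28 without (difference 2.83). Lbhd1 was seen in 14 of 17 against 3 of 28 (difference 2.44, 89.1% of pairs). The last 2 are uncertain as single genes, because 71.1% of the 31-base stretches of Dnaaf2 and 38.4% of those of Lbhd1 also occur in transcripts of other genes, most of all in the overlapping 9330151L19Rik and 1810009A15Rik. The same share was 20.2 to 31.2% for Ptma, Eif4a3, Ranbp1, Hmgb1 and Banf1, mostly with predicted genes, or with Eif1ad in the case of Banf1.

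**Figure D3:**
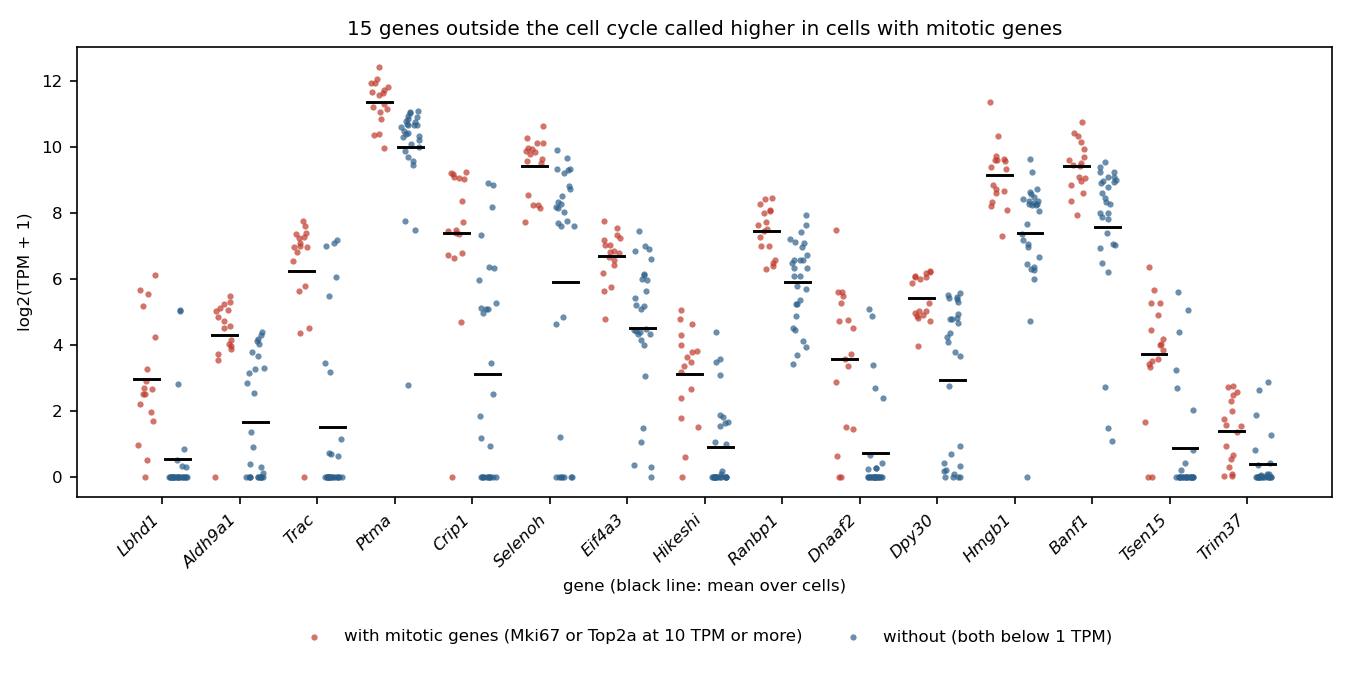
Each point is the level of a gene in 1 cell, log2(TPM + 1), for the 15 genes outside the cell cycle called higher with the largest share of pairs; red, 17 cells with mitotic genes, left; blue, 28 cells without, right; black lines, means. For Trac, Lbhd1, Dnaaf2 and Tsen15 most cells without lie at 0, and for Ptma 12 of 17 cells with mitotic genes lie above every cell without.

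The 5 cells between the thresholds took no part in the choice of these genes. Their mean lay between the means of the cells with and without mitotic genes for 14 of the 15 genes called higher, with Banf1 as the exception. For the 15 genes called lower it did so for 7. The same count over all genes compared was not made, so these counts are a description and no check of the calls.

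Of the genes called lower outside the cell cycle, Rela had the lowest share of pairs of all genes compared. Rela (chr19:5637483-5648130, plus strand) encodes the p65 subunit of NF-kB, the transcription factor of inflammatory signaling. It was at 6.73 to 171 TPM (median 92.6) in the cells with mitotic genes, against 6.76 to 468 TPM (median 201) in the cells without. All 17 cells with mitotic genes lay below the median of the cells without, with 16.8% of pairs. The difference was only -1.03, at the limit of a call, and it was -1.18 in the shared range of genes per cell, -1.65 in cells with i5 indexes N502 to N505 and -0.33 in those with N506 to N517. Without the cell with the fewest genes it was -0.97 and no longer called. Traf3, an adaptor that restrains noncanonical NF-kB signaling, was seen in 7 of 17 cells with mitotic genes (median 0.16 TPM, highest 4.37), against 19 of 28 cells without (median 4.41 TPM, highest 23.5), a difference of -1.15. Among 17 NF-kB target and cytokine genes compared, 0 were called in either direction. Named after their values were seen, Nfkbia, the NF-kB inhibitor, had a median of 469 TPM in cells with mitotic genes and 735 TPM in cells without (difference -1.05, 30.7% of pairs, not called). Nfkb1, the p50 precursor, had 6.13 TPM in cells with mitotic genes and 5.18 TPM in cells without (difference -0.01).

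The genes called lower were of mixed known roles. Npdc1, a membrane protein described as a brake on neural proliferation, was at 0.39 to 202 TPM (median 41) in the cells with mitotic genes, against 0 to 588 TPM (median 148) in the cells without (difference -1.66, 20.4% of pairs). Gdf11, a secreted ligand of the TGF-beta family, was seen in 3 of 17 cells with mitotic genes and reached 43.9 TPM there, against 17 of 28 cells without and up to 821 TPM (difference -2.77). The Gdf11 difference was -4.18 in cells with i5 indexes N502 to N505 but -0.90, no longer called, in those with N506 to N517, and it was -3.63 and -1.46 in the lower and higher i7 indexes. The cells without fell apart for Gdf11, with many near 0 and a group of them far above every cell with mitotic genes, as the plot of these genes shows. Tle3, a corepressor that binds TCF factors of the Wnt pathway, had a median of 1.58 TPM in the cells with mitotic genes and 4.50 TPM in the cells without (difference -1.01, 23.3% of pairs). That difference lies at the limit of a call, and leaving out single cells gave -1.11 to -0.92.

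Vim (chr2:13573927-13582826, plus strand), the intermediate filament vimentin, had the widest gap of the 15 between medians in TPM. It was at 0.20 to 798 TPM (median 47.3) in the cells with mitotic genes, against 0 to 3011 TPM (median 680) in the cells without, a difference of -2.37 with 25% of pairs. The Vim difference was -2.97 in cells with i5 indexes N502 to N505 and -1.51 in those with N506 to N517, and -2.53 and -1.92 in the lower and higher i7 indexes, with no call in N506 to N517 or in the higher i7 indexes. Vimentin is often read as mesenchymal, so genes of that kind were looked at after the Vim values were seen. Cdh2 and Twist1 were listed at 0 in both kinds, Col1a1 reached 0.11 TPM, in a cell without, and Zeb1 0.12 TPM, in a cell with mitotic genes, whereas 1 of the 5 cells between held Col1a1 at 1 TPM or more. Of 8 fibroblast and smooth muscle markers, 4 were at 0 in both kinds. Pdgfra, another of the 8, was seen in 10 cells with mitotic genes and 12 cells without. Summed per cell, the 8 markers reached 112 TPM in cells with mitotic genes and 148 TPM in cells without. Whether these cells had a part in the Vim difference was not tested. The mean of Vim in the 5 cells between was 8.42 on the log2(TPM + 1) scale, above both kinds.

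Creb3, Gabarapl1, Tmed3 and B4galt1, of the 15 genes called lower, have known roles in the secretory pathway or autophagy. This group was made by hand, and the share of such genes over all genes compared was not counted. Creb3, a membrane-bound transcription factor of the endoplasmic reticulum and Golgi, had a median of 3.88 TPM (highest 83.2) in the cells with mitotic genes, against 86.5 TPM (highest 600) in the cells without, and all 17 cells with mitotic genes lay below that median (difference -2.15). Its difference was -4.26 in the shared range of genes per cell, and -1.54 and no longer called in the higher i7 indexes. The Creb3 call was also lost against all other cells and with both Mki67 and Top2a required. Gabarapl1, an ATG8-type protein of autophagosomes, had medians of 20.7 TPM in cells with mitotic genes and 64.4 TPM in cells without (difference -1.66, and -3.42 in the shared range). The Gabarapl1 difference was not called in the lower or higher i7 indexes (-0.90 and -1.96) or in i5 indexes N502 to N505 (-1.35). Tmed3, a cargo receptor of vesicles between the endoplasmic reticulum and Golgi, had medians of 35.1 TPM in cells with mitotic genes and 118 TPM in cells without. Its difference was -1.80, but 0.06 among cells with i5 indexes N502 to N505 and -3.11 among those with N506 to N517. B4galt1, a galactosyltransferase of the Golgi, had 4.26 TPM in cells with mitotic genes and 10.1 TPM in cells without (difference -1.01, and -0.98 without the cell with the fewest genes). The remaining genes were Kansl1, a scaffold of a histone acetyltransferase complex (-1.12), the complement protease Cfi (-1.55), the PDZ protein Tax1bp3 (-1.32), Zc3h7a (-1.27) and Fam214b (-1.84). Parts of Npdc1, Tax1bp3, Gabarapl1 and Creb3 (14.8 to 25.2% of 31-base stretches) are shared with other transcripts.

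**Figure D4:**
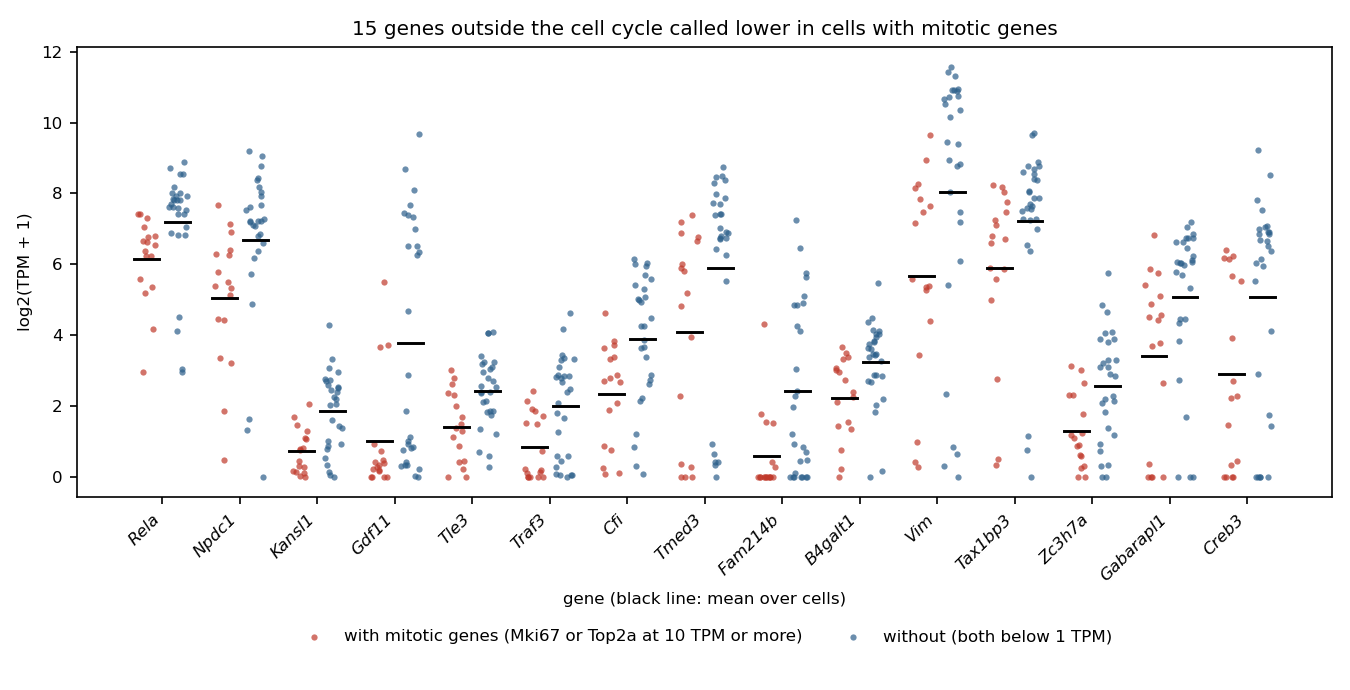
Each point is the level of a gene in 1 cell, log2(TPM + 1), for the 15 genes outside the cell cycle called lower with the smallest share of pairs; red, 17 cells with mitotic genes, left; blue, 28 cells without, right; black lines, means. For Gdf11, Vim and Creb3 cells of both kinds lie at 0 or near it, and the highest cells are cells without.

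Index positions were uneven between the kinds of cells. Of the cells with mitotic genes 8 carried i7 indexes N704 to N707 and 9 carried N708 to N710, against 22 and 6 of the cells without. Outside the cell cycle, the difference had the same sign in both i7 groups for 454 of the 460 genes called higher. It did so for 38 of the 43 called lower. The i7 groups are parts of the same cells that made the calls, and no such count over all genes compared is given. These counts are therefore a description and no check of the calls. The called genes plotted cell by cell above were drawn from genes with the same sign. Their i7 values could therefore differ in size but not in direction. Without the cell with the fewest genes (1316 genes, 85.1% of its TPM in Gm10925), 520 genes were called higher and 68 lower. Without the cell with the highest Defa24, a defensin, the counts were 544 and 70, and without 1 cell with mitotic genes (i7 N707, i5 N502, with Top2a at 10.63 TPM and Mki67 listed at 0) they were 668 and 70. Gm10925 took 5.75 to 24.7% (median 8.83%) of the TPM of cells with mitotic genes and 1.12 to 85.1% (median 8.5%) of that of cells without. Every 31-base stretch of it occurs in mt-Atp6, a mitochondrial gene, and no gene of the mitochondrial chromosome was in the table.

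Gene lists outside the cycle were described by their counts and the median difference of the members compared, beside 6.56% called higher, 0.469% called lower and a median of 0.26 over all genes. A member that was seen only in cells with mitotic genes could pass the filter through them alone, so these counts are of compared members only. The lists were also chosen with earlier results of these data known. Their counts and medians beside those of all genes are therefore a description and no check. Of 31 of 34 chromatin and high mobility group genes compared, 14 were called higher and 0 lower, with a median of 1.16, and all 31 had a positive difference. Of the 14, 11 were outside the cell cycle set, among them Hmgb1, Ptma and Lmnb2, a lamin of the nuclear envelope (difference 2.27). The others were H2afx, H2afz and Hmgb2, which belong to the cell cycle set. H2afz, a histone H2A variant named after its values were seen, had a median of 3850 TPM in cells with mitotic genes and 1253 TPM in cells without (difference 1.78). Hmgb2, a high mobility group protein of proliferating cells, had 259 TPM (7.09 to 1020) in cells with mitotic genes and 27.1 TPM (0 to 179) in cells without (difference 3.24). Relative to all genes the median of the list was 0.90 over all cells, 0.66 and 1.01 in the lower and higher i7 indexes and 0.67 in the shared range of genes per cell.

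Over all cells the list of nuclear transport had the highest median of the lists outside the cycle. Relative to all genes its median was 1.07 over all cells and 1.085 in the shared range of genes per cell. It was only 0.62 and 0.54 in the lower and higher i7 indexes. Within each i7 group it lay below ribosome biogenesis (0.78 and 1.18) and the chromatin list (0.66 and 1.01), among others. Of 14 nuclear transport genes compared, 8 were called higher and 0 lower (median 1.32). Ran, the GTPase of the transport cycle and also named after its values were seen, had medians of 916 TPM in cells with mitotic genes and 396 TPM in cells without (difference 1.33), and Kpna2, an importin alpha whose transcript shares 66.0% of its 31-base stretches with other genes, had 65.1 TPM in cells with mitotic genes and 14.3 TPM in cells without. Kpna2 belongs to the cell cycle set, and its difference of 2.12 was 0.66, no longer called, in the shared range of genes per cell. Of 22 genes of nucleotide and one-carbon synthesis, 7 were called higher and 0 lower (median 1.05). Shmt2 and Shmt1, which pass one-carbon units from serine to folate in mitochondria and cytosol, had medians of 71.1 and 14.6 TPM in cells with mitotic genes, against 11.8 and 0.28 TPM in cells without (differences 2.55 and 2.12). In the shared range of genes per cell Shmt2 was at 1.41 and no longer called, and Shmt1 was at 2.10. Psat1, an enzyme of serine synthesis, was called higher too (1.99), as was Phgdh of the same route (1.63).

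Ribosome biogenesis genes and ribosomal protein genes were counted apart, with no test between the lists. Of 20 ribosome biogenesis genes 5 were called higher and 0 lower (median 1.06), among them Nolc1 (2.17) and Nop58 (1.94), both nucleolar proteins of small nucleolar RNPs, and the nucleolar proteins Ncl (1.36) and Npm1 (1.05). Of 24 cytosolic ribosomal protein genes 0 were called, with a median of 0.46, although all 24 differences were positive. Rps2 had medians of 16555 TPM in cells with mitotic genes and 11196 TPM in cells without (difference 0.74, 82.8% of pairs), below the limit of a call. Without the cell with the fewest genes the Rps2 difference was 0.63. The same step took Rpl18 from 0.79 to 0.43 and Rpl4 from 0.75 to 0.44. Of 28 genes of oxidative phosphorylation 2 were called higher (median 0.67), of 25 proteasome subunits 2 (median 0.68), of 28 splicing factors 1 (median 0.65) and of 17 glycolysis genes 1, the lactate transporter Slc16a1 (median 0.15).

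Microtubule genes were higher in part. Of 12 tubulin and microtubule genes 6 were called higher, of which 5 are in the cell cycle set. Tuba1b, an alpha tubulin, had a median of 1926 TPM in cells with mitotic genes and 164 TPM in cells without (difference 3.56), but 78.7% of its 31-base stretches occur in other transcripts, so it is uncertain as a single gene. Stmn1, which destabilizes microtubules, was at 112 to 2195 TPM in cells with mitotic genes, against 0.16 to 970 TPM in cells without (difference 1.92). In the shared range of genes per cell the list's median relative to all genes was 0.42, against 0.87 over all cells.

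Genes linked with leaving the cycle were counted in 2 lists. Of 25 slow-cycling and growth arrest genes compared, 0 were called higher and 2 lower, Npdc1 and Ypel5 (difference -1.44), with a median of -0.26, where 0.469% of all genes were called lower. This list too was chosen with earlier results of these data known, so no excess is read from that count. The Ypel5 difference was -0.37 in cells with i5 indexes N502 to N505 and -2.59 in those with N506 to N517. Of 5 inhibitors of cyclin-dependent kinases 0 were called. Cdkn1a, the p21 inhibitor, had medians of 253 TPM in cells with mitotic genes and 116 TPM in cells without (difference 0.57, 56.3% of pairs), and Cdkn1c, the p57 inhibitor, was seen in 6 of 17 cells with mitotic genes and 10 of 28 cells without (difference 0.26). Of 8 genes of the MYC family, 22 immediate early genes, 17 genes of the unfolded protein and integrated stress response, 11 interferon and MHC class I genes and 20 lysosome genes, 0 were called in either direction, with medians of -0.25, -0.02, -0.28, -0.27 and -0.08.

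Calls among Wnt and stem cell genes were near the share of 6.56% over all genes. Of 20 Wnt target and feedback genes 1 was called, Cd44 (higher, 1.02, and 0.86 in the shared range of genes per cell), with a median of -0.04. Ascl2, a transcription factor of crypt stem cells, had medians of 24.97 TPM in cells with mitotic genes and 0 in cells without (difference 2.18, 67.0% of pairs, not called), and Sp5, a Wnt target gene, had 2.42 TPM in cells with mitotic genes and 34.99 TPM in cells without (difference -2.03, 31.9% of pairs, not called). Of 14 crypt stem cell genes 1 was called, Cdca7 (higher, 2.43), which also belongs to the cell cycle set. Lgr5 was at 0 to 12.3 TPM (median 2.12) in cells with mitotic genes, against 0.02 to 16.2 TPM (median 2.05) in cells without (difference -0.12, 49.5% of pairs). Prox1, the factor in the title of the series, was at 0.05 to 66.8 TPM (median 5.91) in cells with mitotic genes, against 0 to 48.4 TPM (median 18.2) in cells without. Its difference of -0.65 (38.4% of pairs) was not called and was -1.09 in the lower i7 indexes but 0.75 in the higher ones.

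**Figure D5:**
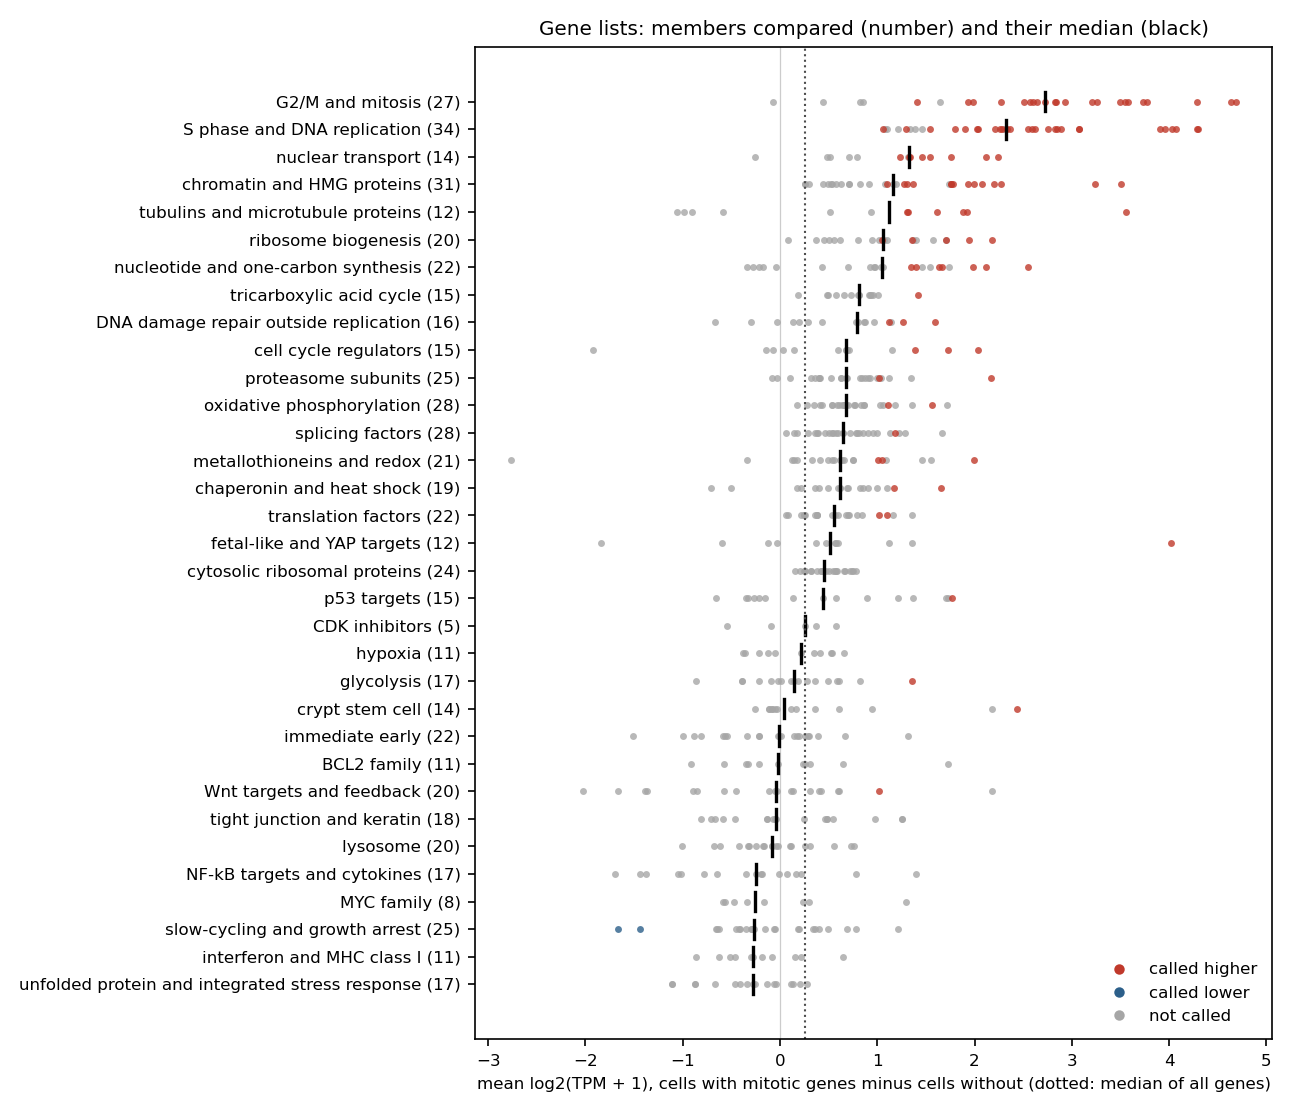
Each row is a gene list, with the number of members compared in parentheses; points are members on a scale of the difference of mean log2(TPM + 1), cells with mitotic genes minus cells without (red, called higher; blue, called lower; grey, not called), black bars are list medians and the dotted line is the median of all genes at 0.26. Over all cells, the lists of nuclear transport and of chromatin and high mobility group proteins have the highest medians outside the cycle, 1.32 and 1.16. This order changed within the i7 groups.

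Since the cells were chosen by 2 cell cycle genes, the values of the others describe the choice. Of 40 G2/M genes 27 could be compared, Mki67 and Top2a included, and 22 were called higher and 0 lower (median 2.72). Cdk1, the kinase that drives entry into mitosis, was at 0 to 199 TPM (median 30.3) and seen in 15 of 17 cells with mitotic genes, against 0 to 2.15 TPM and 1 of 28 in the cells without (difference 4.68, 95.6% of pairs). Birc5, the survivin subunit of the chromosomal passenger complex, was seen in 10 of 17 cells with mitotic genes (up to 432 TPM), against 0 of 28 cells without, where it reached 0.37 TPM. Of 40 S phase genes 34 could be compared, and 27 were called higher and 0 lower (median 2.32). Mcm2, a subunit of the replicative helicase, was seen in all 17 cells with mitotic genes (8.18 to 249 TPM, median 48.5), against 9 of 28 cells without (0 to 48.1 TPM, median 0.09), with a difference of 4.07 and 92.9% of pairs. Rpa2, of the single-strand DNA binding complex, and Tk1, thymidine kinase, were seen in 14 and 13 of 17 cells with mitotic genes and in 1 of 28 cells without each. The largest difference of any gene, named after its values were seen, was that of the histone gene Hist1h2ap, at 0 to 11630 TPM (median 679) in cells with mitotic genes and 0 to 652 TPM (median 0) in cells without (6.57). Histone genes of this cluster resemble each other closely, so the single gene is uncertain.

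Regulators of the cycle differed less. Of 15 compared, E2f2, Mybl2 (B-MYB) and Foxm1 were called higher (1.39, 1.73 and 2.03). Ccnd2, cyclin D2, did not reach a call, with a median of 0 in cells with mitotic genes and 8.21 TPM in cells without, and it was seen in 6 of 17 against 17 of 28 (difference -1.92, 30.6% of pairs).

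Among the 17 cells with mitotic genes, the level of other lists varied with the G2/M program. As a description across cells of 1 mouse and pooled tumors, with n = 17, the mean log2 level of the 38 G2/M genes went with that of the chromatin list (Spearman's rho 0.88, Pearson's r 0.89, and 0.84 without the 2 cells farthest from the median) and of nuclear transport (0.82, 0.76 and 0.70). It went less with nucleotide synthesis (0.59, 0.61 and 0.55), S phase genes (0.49, 0.48 and 0.58) and oxidative phosphorylation (0.49, 0.48 and 0.30). It went least with ribosome biogenesis (0.29, 0.36 and 0.32), ribosomal proteins (0.18, 0.21 and 0.19) and slow-cycling genes (0.01, -0.06 and -0.25). Genes seen per cell followed it at 0.44, 0.34 and 0.31. Some lists hold genes of the cell cycle set: Ezh2, H2afx, H2afz and Hmgb2 in chromatin, Kpna2 in nuclear transport, and Ccng1 and Ccng2 in slow-cycling genes. No value without them was computed, so their part in these relations is unknown. The choice of the lists, made with earlier results of these data known, is a further limit on these relations. In the 9 cells with both Mki67 and Top2a at 10 TPM or more, 1021 genes were called higher and 158 lower against the cells without. Other small sets of cells also moved the counts, to 1839 and 203 within i7 N708 to N710 and to 465 and 615 in the shared range. The part of the number of cells in these counts was not tested.

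Sort genes and markers of other cell types were read in the same cells. Epcam was at 208 to 426 TPM (median 340) in cells with mitotic genes and 14.3 to 721 TPM (median 345) in cells without. Cd24a had medians of 672 TPM in cells with mitotic genes and 675 TPM in cells without, where its lowest value was 1.96 TPM. The cells were sorted on both markers, so these levels do not test the labelled epithelial type. Summed over 12 immune markers, TPM were 0 to 122.7 (median 0.70) in cells with mitotic genes and 0 to 246 (median 1.34) in cells without, with Cd3e and Cd8a at 0 throughout. The macrophage gene Cd68 was seen in 4 of 17 cells with mitotic genes (up to 119 TPM) and 6 of 28 cells without (up to 243 TPM). Over 6 endothelial markers the sums were 0 to 4 TPM in cells with mitotic genes and 0 to 13.3 TPM in cells without, and over 8 fibroblast and smooth muscle markers 0 to 112 TPM in cells with mitotic genes and 0 to 148 TPM in cells without, with Col1a2, Col3a1, Dcn and Des at 0. Among the latter, Pdgfra was seen in 10 of 17 cells with mitotic genes and 12 of 28 cells without. It reached 3.58 TPM in cells with mitotic genes and 4.47 TPM in cells without. Goblet markers summed to 0.09 to 289 TPM (median 21.8) in cells with mitotic genes and 0 to 2227 TPM (median 2.74) in cells without, with Clca1 at 0. Agr2, a goblet marker, was seen in 11 of 17 cells with mitotic genes and 11 of 28 cells without. The 16 enteroendocrine markers summed to 17.6 to 89.3 TPM (median 48.6) in cells with mitotic genes and 24.1 to 318 TPM (median 67.3) in cells without, with Chga and Chgb at 0. Fev, 1 of these 16, was seen in all 17 cells with mitotic genes (median 35.9 TPM) and all 28 without (median 38.8 TPM). Colonocyte markers summed to 6.46 to 486 TPM (median 116) in cells with mitotic genes and 0.43 to 678 TPM (median 54.7) in cells without, with 6 of 11 at 0, Car4 and Krt20 among them. Of the 3 compared, Ceacam1, an adhesion molecule, was called higher (difference 2.24, seen in 13 of 17 cells with mitotic genes and 11 of 28 without). Vil1, also compared, was seen in all 17 cells with mitotic genes and 26 of 28 cells without, and was not called. Tuft markers summed to 9.18 to 233 TPM (median 45.2) in cells with mitotic genes and 0 to 256 TPM (median 54.3) in cells without. Markers of Paneth and deep crypt secretory cells summed to 145 to 1458 TPM (median 443) in cells with mitotic genes and 0.76 to 357100 TPM (median 598) in cells without. Of these markers, Defa24 alone was at 239134 TPM in 1 cell without, which showed 3935 genes. The part of the markers of other cell types in the differences was not tested.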

How the data were processed

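The authors deposited 1 table of TPM, made from the reads of 56 single-cell libraries. Per the submitters' processing notes, bcl2fastq 1.8.4, Bowtie2 2.2.9, RSEM 1.2.31 and GRCm38.p4 were used. Strand and annotation release: not given in the sources used here. Since TPM carry no depth, the reads behind a value are unknown, and a gene listed at 0 may have been missed. Library pairs were averaged, cells were grouped by the thresholds given in the text, and every gene seen (1 TPM) in 20% of cells was compared on the log2(TPM + 1) scale with pandas 2.3.3, numpy 2.4.6 and SciPy 1.17.1 under Python 3.11.15 (plots: matplotlib 3.10.9). The comparison was checked on real values shuffled over cells within each gene, with large known changes planted in widely seen genes. That check does not cover changes near the limit of a call or genes seen in few cells. Named outside the cell cycle were the 15 called genes per direction with the most extreme share of pairs and the same sign in both i7 groups, without predicted genes and pseudogenes; in each cycle list the 5 members and in each other list the 3 members with the largest difference; and the sort genes, Lgr5, Prox1 and Gm10925. Not every list member under this rule is described above, among them the called Sprr2a3 (difference 4.02), Nqo1 (2.00) and Aen (1.77). Of the 31-base stretches of Sprr2a3, 73.6% occur in other genes. Further names were chosen after their values were seen: Dad1, the T cell and mesenchymal companions of Trac and Vim, Nfkbia, Nfkb1, H2afz, Ran, Ncl, Npm1, Phgdh, Ccnb1, Hist1h2ap, Cd68, Ceacam1 and Defa24. The cells and gene lists were themselves chosen with earlier results of these data known. Shared transcript sequence was counted in stretches of 31 bases in GENCODE M21, and promoters came from RefSeq (GRCm38.p6, 7242 of 9166 compared genes matched). Alternatives changed the thresholds, pseudocount, filter, scaling and the cells used.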

Additional observations from a re-analysis of the deposited data

How the results depend on the processing

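The counts of calls depended on which cells and limits were used, so they are given as higher and lower, then the same outside the cell cycle, with 601 and 43, then 460 and 43, as reported. Other choices of cells gave 420 and 24 (312 and 23) with mitotic genes at 5 TPM, 900 and 160 (739 and 159) at 20 TPM with 9 cells, 1021 and 158 (846 and 158) with both genes at 10 TPM in 9 cells, 497 and 30 (367 and 30) against all other cells, and 733 and 116 (599 and 115) against the 14 cells with both genes at 0. Other limits and scales gave 216 and 16 (145 and 16) with a pseudocount of 10, 718 and 55 (568 and 55) with 0.1, 355 and 36 (309 and 36) for genes seen in 50% of cells, 219 and 7 (139 and 7) at a fold of 4, 1475 and 209 (1306 and 206) with no condition on pairs, and 489 and 73 (354 and 73) with cells scaled to the same median ratio. The shared range of genes per cell (9 cells with mitotic genes, 15 without) gave 465 and 615 (359 and 613), and 41 of the 43 lower genes but 214 of the 460 higher ones outside the cycle were called there too. Within i7 N704 to N707 (8 and 22 cells) the counts were 624 and 203 (539 and 202), within N708 to N710 (9 and 6) 1839 and 203 (1683 and 203), within i5 N502 to N505 (10 and 13) 1009 and 187 (869 and 186) and within N506 to N517 (8 and 16) 946 and 164 (812 and 163). The i5 groups share cells, because an averaged pair with an i5 index in each range was counted in both. Without the cell with the fewest genes the counts were 520 and 68 (383 and 67), and without the cell with the highest Defa24 544 and 70 (406 and 69). Leaving out each cell in turn, cells without mitotic genes included by a choice made after seeing the data, gave 520 to 671 and 38 to 70 (383 to 529 and 37 to 69), and kept 14 to 15 of the 15 higher and 12 to 15 of the 15 lower genes called. Over the other 23 settings 10 to 15 of the higher and 3 to 15 of the lower ones were called, the fewest at a fold of 4. Among named genes with a call, the sign turned for Tmed3 (0.0573 within i5 N502 to N505). Among lists at least 0.5 from the median of all genes, it turned for NF-kB (0.1499) and the unfolded protein response (0.0609) within i7 N708 to N710. Lists nearer to it and genes not called, such as Prox1, also changed sign between settings. The causes were not tested. No paired analysis was possible because the labels give 1 group with no shared replicate numbers.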

Other observations

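Several genes outside the rule for naming showed large differences and were chosen after their values were seen. Ripk3, a kinase of necroptosis, was at 0 to 250 TPM (median 96.0) in cells with mitotic genes and seen in 16 of 17, against 0 to 213 TPM (median 0) and 10 of 28 in cells without (difference 3.89). Id1, an inhibitor of basic helix-loop-helix factors, was seen in all 17 cells with mitotic genes (median 376 TPM), against 20 of 28 cells without (median 109 TPM), with a difference of 3.45. Lgals4, an intestinal galectin, had medians of 457 TPM in cells with mitotic genes and 36.9 TPM in cells without (difference 3.21).

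Among lower genes, Tmub2 had medians of 0.49 TPM in cells with mitotic genes and 88.1 TPM in cells without (difference -2.44), but the sign differed between i7 groups, at -4.57 for N704 to N707 and 0.81 for N708 to N710. Cish, a feedback inhibitor of cytokine signaling, did the same (-3.31 and 0.33), with medians of 8.87 TPM in cells with mitotic genes and 97.1 TPM in cells without. Adad1 had the highest share of pairs of any gene outside the cell cycle set, 92.2%, at 2.35 to 5.44 TPM in cells with mitotic genes and 0 to 4.38 TPM in cells without, and its difference of 0.79 was below the limit of a call.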
